A study of Oryza sativa with 18 samples.

Results

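Among 9 RNA-seq libraries from unstressed rice leaves, the largest difference did not follow genotype. It ran between 2 sets of 3 libraries, each of which held both wild type and FKBP57 knockout leaves. The first trio was wild type control 1, wild type control 2 and FKBP57 knockout control 2. The second trio was wild type control 3 with FKBP57 knockout controls 1 and 3. These 6 libraries are 6 of the 9 control libraries and 6 of the 18 libraries in the series. The trios were chosen by the main variation in the counts of all genes among these same libraries, so what differs between them is given as a description, without a test. The first trio had far more mRNA of cell division and growth-regulator genes, and less mRNA of photosynthesis genes. The 3 FKBP73 knockout controls, which took no part in drawing up the trios, lay between them.

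The series holds leaf mRNA of 3 genotypes: the wild-type cultivar Ningjing 4, a knockout of FKBP57 and a knockout of FKBP73. Both are FK506-binding proteins, enzymes that turn the peptide bond before proline and so help proteins fold. Each genotype was kept in normal nutrient solution (control) or given 150 mM NaCl for 4 hours (salt), with 3 libraries in each of the 6 groups, which the series design calls biological replicates. The labels give no time for the controls, no leaf number, plant age or harvest hour, and do not say whether a knockout is 1 line, or whether plants were pooled. Neither targeted gene was analysed here, so neither knockout could be verified at its target.

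A rice leaf grows from its base. Cells divide there, expand as they are pushed upward, and build their chloroplasts as they mature, so the young base is rich in mRNA of DNA replication and mitosis and the mature blade in mRNA of the photosystems and of carbon fixation. Class I KNOX homeobox genes are active in the shoot meristem, the stem cell region that makes leaves, and are normally silent in leaves themselves. Growth-regulating factors are plant transcription factors found mainly in young, growing organs.

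Library totals ran from 31430919 to 39894394 counts in the first trio and from 27601098 to 30867070 in the second, without overlap. The TMM factors, which scale the libraries for composition, were 1.02 to 1.11 and 0.779 to 0.923. At the depth of the smallest library, 27973 to 28468 genes had a count in the first trio and 26801 to 27845 in the second, so the difference in detected genes was present at equal depth. The part of composition and RNA quality in the results was not tested. Pairs of libraries from 1 group differed beyond sampling noise, with a chi-square of at least 23.7 per degree of freedom. As a check of the tissue, the photosynthesis lists were abundant in all 18 libraries, with a lowest summed level of the antenna list of 975 CPM (counts scaled to a common library total). Of 6 root markers only 3 passed the filter on low counts, with summed levels of 4.48 to 10.6 CPM in the first trio and 10.9 to 19.2 CPM in the second.

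The genes carry RAP-DB identifiers that no table used here pairs with names. Functions are therefore described through 42 lists of identifiers drawn up from prior knowledge of rice genes, in which a wrong membership is possible. The level of a list in a library is the median over its tested members of log2-CPM, relative to the mean of the 6 libraries. A gene is called set apart when the 3 and 3 libraries did not overlap and the means differed at least 2-fold.

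Each library was placed on the line joining the trios, with the mean of the first trio at 1 and that of the second at -1. FKBP57 knockout control 2 lay at 1.31, wild type control 1 at 0.87 and wild type control 2 at 0.82. FKBP57 knockout control 3 lay at -1.56 and wild type control 3 at -1.08, but FKBP57 knockout control 1 only at -0.36. The split was thus graded, with both ends taken by FKBP57 knockout libraries. On lines drawn without the library being placed, the first trio lay at 0.69, 0.52 and 1.24, wild type control 3 at -0.87 and FKBP57 knockout control 3 at -1.51. FKBP57 knockout control 1 then lay at 0.01, midway between the trios, so its place in the second trio rested on its own values.

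The FKBP73 knockout controls lay at -0.14, 0.18 and 0.37 (replicates 1 to 3). These positions were inside the gap between the trios. Replicate 1 lay nearest to FKBP57 knockout control 1, and replicate 3 nearer to the first trio than to the second. Under the other scalings, filters and prior count, and without any 1 of the 6 libraries, replicate 2 stayed between 0.078 and 0.30 and replicate 3 between 0.24 and 0.50. Replicate 1 lay between -0.30 and 0.089, its positive value coming without FKBP57 knockout control 1. In a principal component analysis of the 9 controls, the first component held 53.6% of the variance and gave the FKBP73 knockout libraries scores of -13.1, 10.7 and 35.7. The first trio scored 62.9 to 116 on it and the second -157 to -25.5, the same order as on the line.

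**Figure D1:**
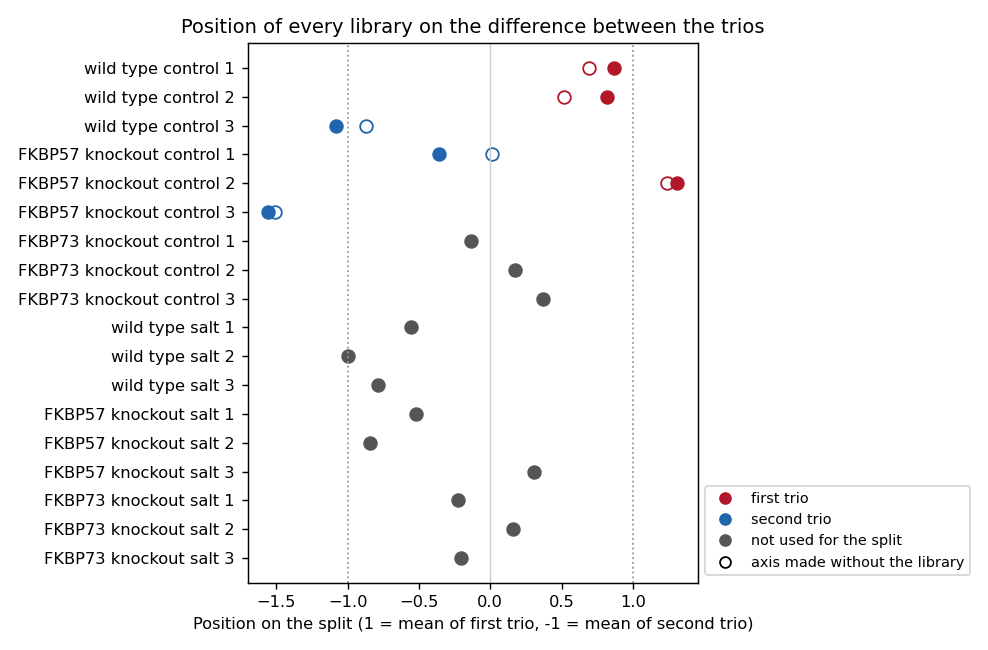
Position of each of the 18 libraries (vertical axis) on the line between the trios (horizontal axis, no unit, 1 at the mean of the first trio and -1 at that of the second). Filled points use all 6 libraries and open points a line drawn without the library itself. FKBP57 knockout control 1 moves from -0.36 to 0.01, and the FKBP73 knockout controls lie from -0.14 to 0.37.

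Of the variance among the 6 libraries over all tested genes, 55.4% lay between the trios and 11.1% between the genotypes. Of 25957 tested genes, 3248 (12.5%) were set apart as higher in the first trio and 2032 (7.83%) as lower. With no overlap as the only condition, 5486 (21.1%) were higher and 6144 (23.7%) lower. The higher genes differed more, with a median difference of 1.91 in log2-CPM against -1.23 for the lower genes. Differences of at least 8-fold were found in 760 of the higher genes and 1 of the lower. The median of all genes was -0.08, and it would be 0.21 with library size alone in place of TMM. That scaling gave 4439 higher and 727 lower genes, so the balance of the counts depends on the scaling, and differences below are relative to the TMM scale.

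Where the higher trio averaged 10 CPM or more, Os01g0327500 and Os01g0201600 had the largest differences upward. Os01g0327500 was at 21.2, 11.7 and 28.6 CPM in the first trio (wild type 1, wild type 2, FKBP57 knockout 2) and had 2 counts in all in the second. In the FKBP73 knockout controls it was at 0, 16.0 and 2.07 CPM. Libraries of 1 group thus ranged from none to a level within the first trio. Os01g0201600 was at 119, 81.8 and 182 CPM in the first trio, against 0.075, 25.2 and 0 CPM in the second (wild type 3, FKBP57 knockout 1, FKBP57 knockout 3). In the FKBP73 knockout controls it was at 31.2, 72.5 and 94.2 CPM, the last within the range of the first trio and the others between the trios. Os11g0641800 was lower in the first trio, at 18.4, 9.31 and 0.40 CPM against 26.6, 26.5 and 26.5 CPM. The second trio was very even for it, and most of the difference came from FKBP57 knockout control 2. Os04g0353600 was at 90.7, 6.75 and 18.0 CPM against 179, 95.0 and 135 CPM, so the groups nearly met.

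Genes of DNA replication, which copy the genome before division, were higher in the first trio. The summed level of the list was 519 and 451 CPM in wild type controls 1 and 2 and 819 CPM in FKBP57 knockout control 2. In the second trio it was 56.3 CPM in wild type control 3 and 97.1 and 47.1 CPM in FKBP57 knockout controls 1 and 3. The groups did not overlap, and the mean of the first trio was 8.92-fold that of the second (596 ± 196 against 66.8 ± 26.6 CPM, SD, n = 3). All 11 tested genes of the list were set apart as higher, with a median log2 difference of 3.65 and a range of 2.41 to 4.35.

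Genes of the mitotic cell cycle, such as cyclins and their kinases, behaved alike. Their summed level was 485, 450 and 763 CPM in the first trio and 23.6, 55.4 and 19.0 CPM in the second, a ratio of means of 17.3. All 7 tested members of 8 were set apart as higher, with a median log2 difference of 4.19. Within each genotype the difference was of similar size, at 4.03 in wild type and 4.77 in the FKBP57 knockout. In bulk leaf samples, fewer cells of a type and less mRNA per cell cannot be told apart.

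Of the 12 growth-regulating factors, 11 were set apart as higher in the first trio. Their median log2 difference was 3.94, and single members reached 7.29. The summed level of the list was 198, 183 and 255 CPM against 98.5, 92.9 and 90.5 CPM, a ratio of 2.26, because 1 abundant member (counts of 1436 to 3847 in the 6 libraries) hardly differed, at -0.13. The other 11 had differences of at least 1.11. With members averaging under 5 CPM left out, the list's median difference was 2.01.

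Both class I KNOX genes of the shoot meristem list, whose mRNA is normally confined to meristems, were detected in the first trio and had no count in the second. The more abundant of the pair had 34, 123 and 188 counts in wild type controls 1 and 2 and FKBP57 knockout control 2. Against a floor of 3 counts over the second trio, its mean level was at least 81.1-fold higher in the first. The other had 16, 135 and 108 counts and was at least 61.1-fold higher. Wild type control 1, although the most deeply sequenced, had the fewest counts of both in the trio, and FKBP57 knockout control 1, the nearest of the second trio to the first, had none. In the 12 libraries outside the trios, the only counts of the pair were 4 in FKBP73 knockout control 3, 2 in FKBP57 knockout salt 2 and 228 in FKBP57 knockout salt 3.

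A further 5 lists, on young organs and flowers, were drawn up after these values were seen. The 3 further class I KNOX genes were set apart as higher, with a summed level of 2.88, 5.17 and 7.21 CPM against 0.98, 0.27 and 0.25 CPM. Of the YABBY and DROOPING LEAF factors, which pattern young leaves, 4 of 6 were set apart as higher, with a median log2 difference of 2.08. Of the stomatal lineage bHLH factors, which make guard cell precursors, 3 of 4 were set apart, with 32 to 91 counts per library in the first trio and 0 in the second. None of 3 class III HD-Zip factors and 1 of 6 floral organ MADS factors were set apart as higher, and none as lower.

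**Figure D2:**
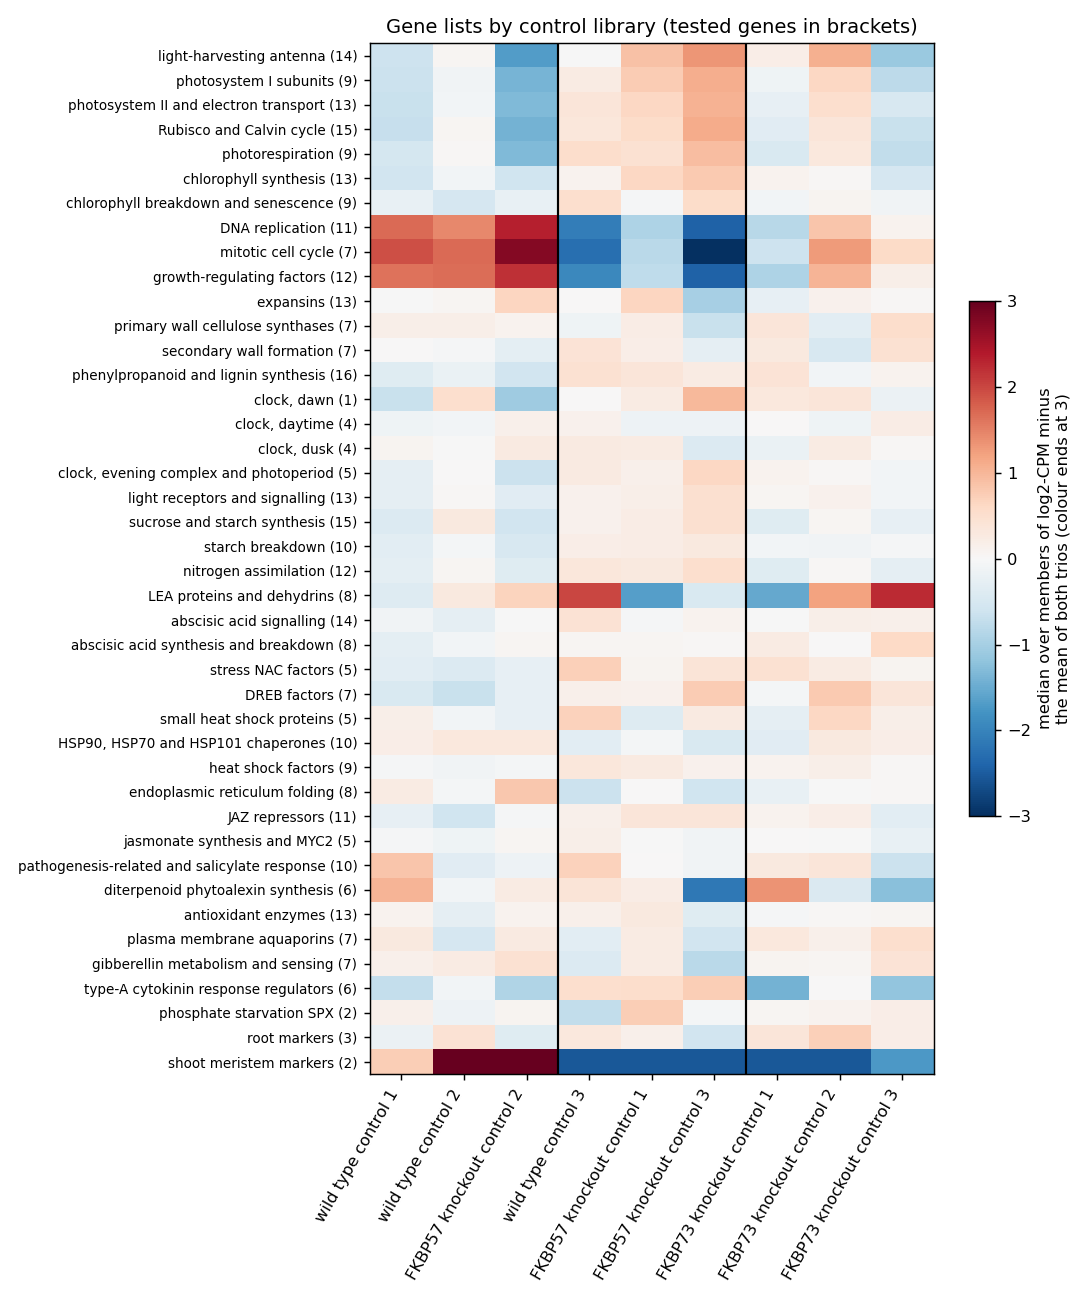
Level of the 42 lists (vertical axis, tested genes in brackets) in the 9 control libraries (horizontal axis), as the median over members of log2-CPM relative to the mean of the 6 libraries of the trios; colours end at 3. The first trio is left, the second in the middle and the FKBP73 knockout right; the growth lists change sign between the trios, while the clock, wall and most stress lists stay pale. The shoot meristem values depend on the prior count, because the second trio had no counts.

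Photosynthesis genes were lower in the first trio, by less than the growth genes were higher. For the photosystem I subunits, the proteins of the reaction centre that reduces ferredoxin, the summed level was 3876 and 5695 CPM in wild type controls 1 and 2 and 2273 CPM in FKBP57 knockout control 2. In the second trio it was 7307 CPM in wild type control 3 and 10303 and 13123 CPM in FKBP57 knockout controls 1 and 3. The groups did not overlap. Of the 9 members 8 were set apart as lower, with a median log2 difference of -1.45 and a narrow range of -1.57 to -1.28.

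Of 13 genes of photosystem II and electron transport, 10 were set apart as lower (median -1.36). Of 15 genes of Rubisco and the Calvin cycle, which fix carbon dioxide, 9 were set apart as lower and 1 as higher (median -1.35). Photorespiration, which salvages the product of Rubisco's reaction with oxygen, had 8 of 9 set apart as lower (median -1.29). The 9 photorespiration genes differed by similar amounts, from -1.49 to -0.99. Chlorophyll synthesis had 3 of 13 genes set apart as lower (median -1.02), and chlorophyll breakdown and senescence 0 of 9 (median -0.68). All 9 breakdown genes had negative differences, and 5 were lower without overlap, against 23.7% of all genes. Breakdown genes were therefore not higher where the photosystem genes were lower.

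The light-harvesting antenna proteins, which bind most of the chlorophyll, did not separate the trios cleanly. Their summed level was 3381, 5604 and 1642 CPM in the first trio and 5516, 10659 and 13038 CPM in the second. Wild type control 2 lay above wild type control 3, so the groups overlapped, and 6 of 14 genes were set apart as lower (median -1.50). Within wild type the median difference was -0.29, and within the FKBP57 knockout it was -2.83. The lists of the photosystems, Calvin cycle, photorespiration and chlorophyll synthesis were also more unequal within the knockout, but chlorophyll breakdown was not (-0.72 in wild type, -0.58 in the knockout). Photosystem I differed by -0.62 in wild type and -2.30 in the knockout, and the Calvin cycle by -0.58 and -2.23. The growth lists had no such gap between the genotypes, whose difference was not tested.

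**Figure D3:**
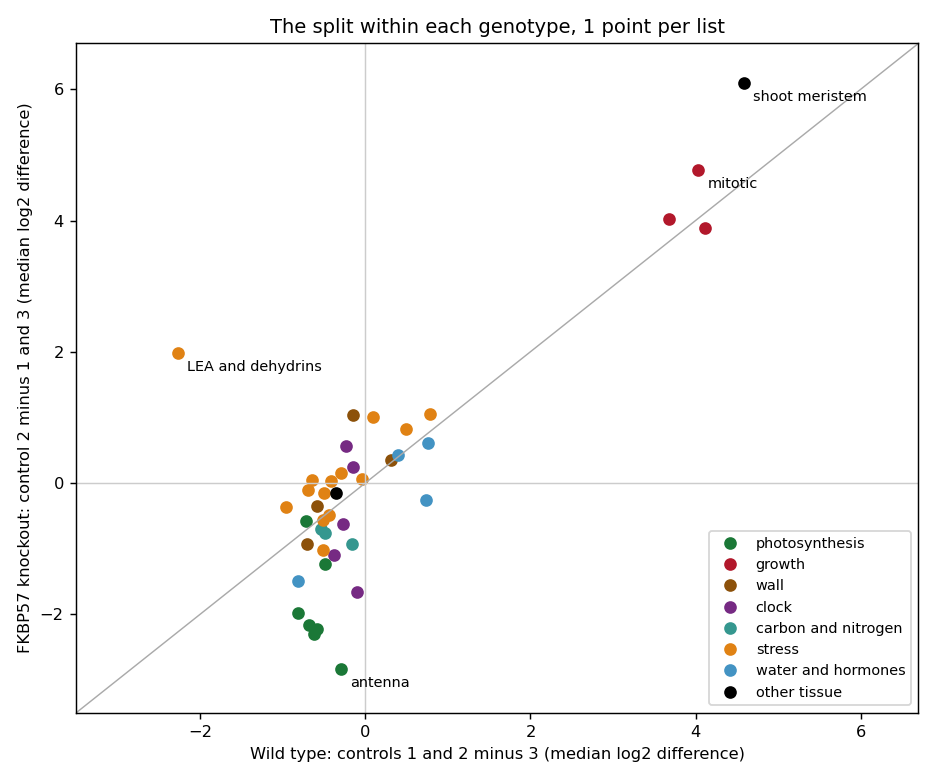
Median log2 difference of each of the 42 lists within wild type (horizontal axis, controls 1 and 2 minus 3) and within the FKBP57 knockout (vertical axis, control 2 minus 1 and 3), coloured by function, with the line of equality. The growth lists lie near the line at about the same height, the photosynthesis lists other than chlorophyll breakdown fall below it (antenna -0.29 and -2.83), and LEA proteins and dehydrins have opposite signs (-2.27 and 1.98).

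Cellulose synthase and expansin genes differed little in summed level, while lignin genes leaned lower in the first trio. The summed level of the primary wall cellulose synthases, which build the wall of growing cells, was 3048 ± 182 CPM in the first trio and 3137 ± 421 CPM in the second (SD, n = 3), and 0 of 7 were set apart. Of 13 expansins, which loosen walls during growth, 1 was set apart as higher and 1 as lower. Their summed level was 312 CPM against 305 CPM, but single members differed from -1.03 to 3.12 in log2 (median 0.73). Secondary wall formation had 1 of 7 set apart as higher. For phenylpropanoid and lignin synthesis all 16 tested genes had negative differences (median -0.87). Of these, 10 were lower without overlap, against 23.7% of all genes, although 1 reached the 2-fold threshold as well. The level of that list was -0.38 ± 0.20 in the first trio and 0.35 ± 0.11 in the second (SD, n = 3), without overlap. The summed cellulose synthases of growing cells differed by less than the spread between libraries. That sum was dominated by 1 member, with 33819 to 52638 counts in the 6 libraries and a difference of -0.48. In log2 the 7 members differed from -0.48 to 1.03 (median 0.30), with 5 positive and 2 negative, and levels of that list overlapped.

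No gene of the clock lists was set apart, whereas 12.5% of all genes were set apart as higher and 7.83% as lower. The 1 gene of the dawn list was at 1328, 2995 and 1020 CPM in the first trio and 2137, 2504 and 4182 CPM in the second. These levels overlapped, with a log2 difference of -0.82. The median difference was 0.06 for the 4 daytime genes, 0.22 for the 4 dusk genes and -0.73 for the 5 genes of the evening complex and photoperiod. Clock genes cycle through the day, and of the 4 clock lists the evening complex list was the one whose levels did not overlap between the trios. Of 13 light receptor and signalling genes 1 was set apart as lower (median -0.42). With no overlap as the only condition, 7 were lower and 1 higher, against 23.7% and 21.1% of all genes. The level of that list was -0.19 ± 0.21 in the first trio and 0.26 ± 0.19 in the second (SD, n = 3), without overlap.

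Nitrogen genes leaned lower in the first trio. Nitrogen assimilation had 4 of 12 genes set apart as lower and 1 as higher, and its summed level was 8879 ± 3989 CPM against 18316 ± 3923 CPM (SD, n = 3). Starch breakdown had 2 of 10 set apart in each direction, and sucrose and starch synthesis had 3 of 15 higher and 2 lower. Of all genes, 12.5% were set apart as higher and 7.83% as lower. With no overlap as the only condition, 6 of 10 starch breakdown genes were lower and 2 higher, against 23.7% and 21.1% of all genes. The levels of that list did not overlap. For sucrose and starch synthesis 5 of 15 were lower on that condition and 3 higher, and list levels overlapped. The sum of that list was 1742 ± 472 CPM against 3112 ± 496 CPM (SD, n = 3). The type-A response regulators, which are switched on by cytokinin, were lower in the first trio: 127, 199 and 109 CPM in sum against 301, 287 and 347 CPM. Their groups did not overlap, 4 of 6 were set apart as lower, and the median difference was -1.18. Of 7 genes of gibberellin metabolism and sensing, 2 were set apart as higher and 1 as lower. Of 7 plasma membrane aquaporins 2 were set apart as lower, but 4 had positive and 3 negative differences (median 0.44). The aquaporin sum was 1464 ± 126 CPM in the first trio and 1106 ± 322 CPM in the second (SD, n = 3), and levels of that list overlapped.

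Stress lists had between none and 3 members set apart in a direction, and several leaned lower in the first trio. Of 8 LEA proteins and dehydrins, which accumulate in drying or salt-treated tissue, 0 were set apart. Their summed level was 117, 143 and 211 CPM in the first trio and 270, 66.0 and 72.9 CPM in the second. The highest control of wild type was thus in the second trio and that of the FKBP57 knockout in the first. Of 14 genes of abscisic acid signalling, the hormone path of water stress, 1 was set apart as lower (median -0.20). The 5 stress NAC factors had 0 set apart (median -0.51), although 4 of them were lower without overlap, against 23.7% of all genes. Their sum was 157 ± 8.45 CPM against 277 ± 56.2 CPM (SD, n = 3). Among the others, the 7 DREB factors 3 lower (median -0.89) and the 11 JAZ repressors of jasmonate signalling 2 lower (median -0.69). Small heat shock proteins had 0 of 5 set apart, and heat shock factors 1 of 9 in each direction. The levels of the NAC, DREB, JAZ and heat shock factor lists lay lower in the first trio without overlap, but with library size alone the median of the heat shock factors was 0.0068.

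Some chaperones, which help proteins fold, were higher in the first trio. The summed level of the HSP90, HSP70 and HSP101 list was 3568, 3478 and 3743 CPM in the first trio and 1650, 1924 and 1497 CPM in the second, a ratio of 2.13 without overlap. A gene of the list carried most of it, with 104938 to 138715 counts in the first trio and 27483 to 36630 in the second. Of the 10 members 3 were set apart as higher, and 2 had negative differences. Of 8 genes of protein folding in the endoplasmic reticulum 2 were set apart as higher (median 0.73), and levels of that list overlapped. None of 10 pathogenesis-related and salicylate genes, 6 diterpenoid phytoalexin genes or 5 jasmonate synthesis genes were set apart, and 1 of 13 antioxidant enzymes was lower.

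In the FKBP73 knockout controls, which lie outside the trios, growth and photosynthesis levels did not run in opposite order. The mitotic list stood at 72.7, 236 and 150 CPM in FKBP73 knockout controls 1, 2 and 3. DNA replication stood at 99.9, 311 and 187 CPM. In both lists replicate 1 was lowest and replicate 2 highest, and the 3 libraries lay below the first trio and above the second. The level of the growth-regulating factors had the same order (-0.93, 1.02 and 0.18), but replicate 1 lay below FKBP57 knockout control 1 (-0.77). The antenna list stood at 6687, 11333 and 2421 CPM in the same libraries. Photosystem I stood at 5598, 9302 and 3530 CPM. Replicate 2, with the most growth mRNA of the 3, also had the most photosynthesis mRNA, whereas between the trios the libraries with more growth mRNA had less of photosystem I. Type-A response regulators, at 72.3, 208 and 82.8 CPM, were lower in replicates 1 and 3 than in either trio. LEA proteins and dehydrins stood at 73.8, 290 and 324 CPM, so replicates 2 and 3 exceeded the 6 libraries.

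**Figure D4:**
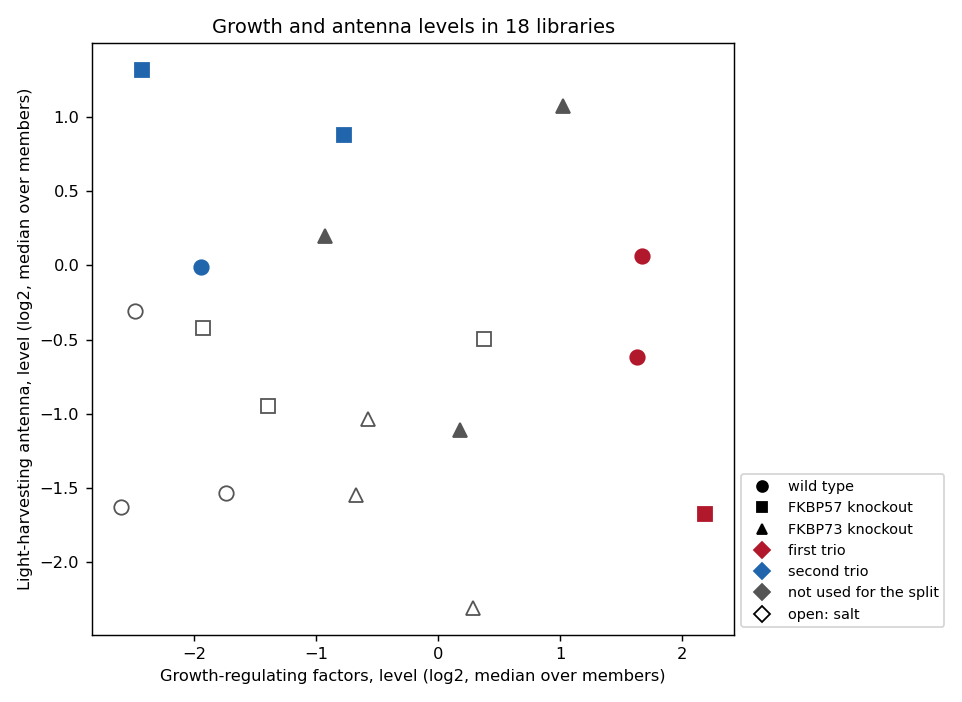
Level of the growth-regulating factors (horizontal axis) and of the light-harvesting antenna (vertical axis) in 18 libraries, both as the median over members of log2-CPM relative to the mean of the 6 libraries of the trios. The first trio lies at the high end of the horizontal axis (1.63 to 2.19), and the second lies lower (-2.42 to -0.77), within the range of the salt libraries. FKBP73 knockout control 2 (filled triangle, 1.02 and 1.08) is high on both, and the salt libraries (open) are low on the antenna.

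The salt response of the FKBP73 knockout compares libraries outside the trios and was tested by edgeR's quasi-likelihood test over 25957 genes. The spread used in that test was estimated from all 18 libraries, the trios included. At a Benjamini-Hochberg adjusted p under 0.05, 2304 genes (8.88%) rose and 1418 (5.46%) fell. The labels give no time for the controls, so salt and a difference in harvest cannot be told apart. Among the genes set apart as higher in the first trio, 66 (2.03%) rose under salt and 72 (2.22%) fell. Among those set apart as lower, 89 (4.38%) rose and 126 (6.20%) fell. Genes set apart differ within the wild type and FKBP57 knockout control groups, which adds to their spread in this fit. These shares are therefore not independent of the split, and no conclusion is drawn from them. The higher set had a median abundance of 5.57 CPM, against 10.1 CPM for all genes and 12.5 CPM for the lower set. Across genes, the difference between the trios and the salt response had a Pearson r of -0.14, and genes are not independent replicates.

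Genes of water stress and abscisic acid rose under salt in the FKBP73 knockout. Of the LEA proteins and dehydrins 7 of 8 rose (median log2 fold change 3.84), and the list's sum went from 73.8, 290 and 324 CPM to 2738, 3481 and 2437 CPM. Control and salt libraries did not overlap. In abscisic acid signalling 11 of 14 genes rose (median 2.63), of the stress NAC factors 4 of 5 (median 1.66), of the JAZ repressors 6 of 11 (median 1.06) and of the heat shock factors 5 of 9 (median 0.97). Of the chlorophyll breakdown and senescence genes 6 of 9 rose and 1 fell (median 1.19). Between the trios, 0 LEA, NAC and chlorophyll breakdown genes were set apart, and 1 of 14 in abscisic acid signalling. Of the JAZ repressors 2 of 11 were set apart as lower, against 7.83% of all genes, and of the heat shock factors 1 of 9 in each direction. The levels of the NAC, JAZ, heat shock factor and chlorophyll breakdown lists nevertheless lay lower in the first trio without overlap.

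Calls in the growth lists under salt depended on the fit. Of the DNA replication genes 1 of 11 fell (median -2.23), and the list's sum was 32.1, 58.2 and 50.9 CPM under salt, below the 99.9 CPM of the lowest control. In a fit of the 6 FKBP73 knockout libraries 9 of the 11 were called lower, with DESeq2 4, and with any 1 of these libraries left out 0. No mitotic gene (median -0.94) and no growth-regulating factor (median -0.76) passed edgeR's test, nor DESeq2's, but 3 and 1 did in the fit of the 6 libraries. At an unadjusted p under 0.05, 8 DNA replication genes, 0 mitotic genes and 2 growth-regulating factors were lower in the edgeR fit of all libraries. The antenna list had 4 of 14 genes that fell (median -1.89), with sums of 1604, 975 and 2259 CPM under salt, and photosystem I had 0 of 9 (median -1.16, 5 lower at an unadjusted p under 0.05, 2 called with DESeq2). For Os01g0327500, Os01g0201600, Os11g0641800 and Os04g0353600, edgeR's adjusted p was 0.72, 0.48, 0.36 and 0.66. The counts of calls were sensitive to single libraries. Without control 1, control 3, salt 1 or salt 2 of the FKBP73 knockout, 1481, 1448, 1373 and 1431 genes rose and 722, 748, 535 and 536 fell. Over 6 fits that each left out a library, 0 to 6 antenna genes, 4 to 6 LEA genes and 9 to 11 abscisic acid signalling genes were called.

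**Figure D5:**
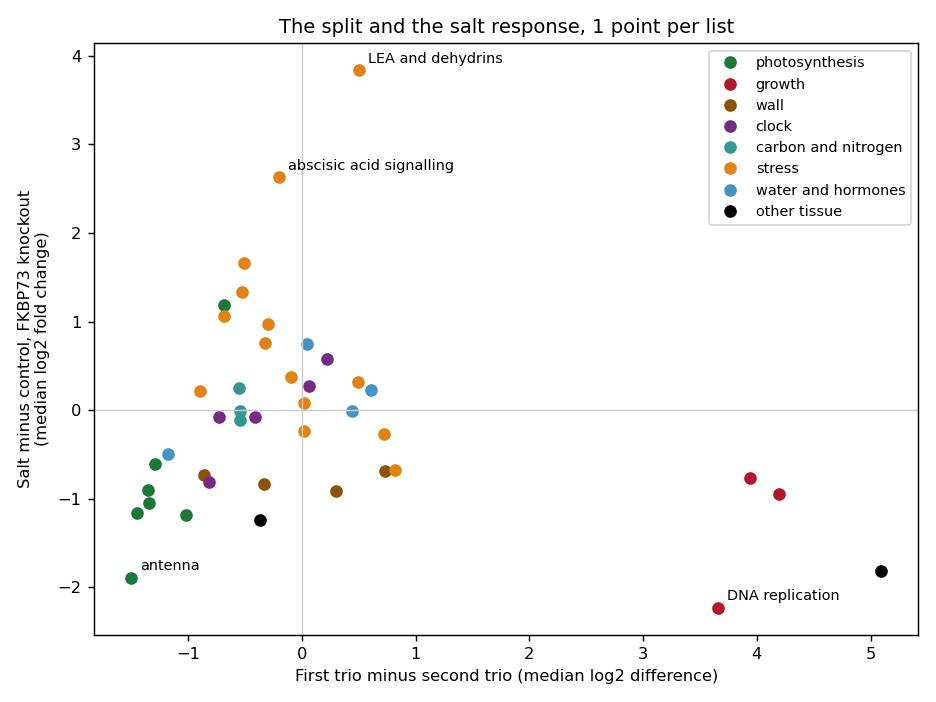
Median log2 difference of each of the 42 lists between the trios (horizontal axis, first minus second) and median log2 fold change under salt in the FKBP73 knockout (vertical axis, salt minus control), coloured by function. The growth lists stand apart along the horizontal axis (3.65 to 4.19) and the LEA and abscisic acid signalling lists along the vertical axis (3.84 and 2.63). The shoot meristem point rests on genes with few or no counts and depends on the prior count.

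The 9 salt libraries lay from -0.995 to 0.31 on the line between the trios. Wild type lay at -0.56, -0.995 and -0.79, FKBP57 knockout at -0.52, -0.84 and 0.31, and FKBP73 knockout at -0.22, 0.16 and -0.21. FKBP57 knockout salt 3 was the one nearest the first trio, and it also had 228 counts of the meristem pair. Its mitotic list stood at 258 CPM, against 22.0 and 24.3 CPM in the other FKBP57 knockout salt libraries. Libraries of 1 salt group thus also differed in growth mRNA.

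Whether antenna and other list levels varied together was tested over these 9 libraries by exact two-sided permutation, for 5 relations. Antenna and DNA replication had r = -0.19 (exact permutation p = 0.62, adjusted 0.83) and rho = -0.18 (p = 0.64, adjusted 0.64). Antenna and the mitotic list had r = -0.086 (exact permutation p = 0.83, adjusted 0.83) and rho = -0.23 (p = 0.55, adjusted 0.64). Without the 2 libraries farthest from the median of the antenna these values became 0.36 and 0.49. No relation between the antenna list and the division lists was therefore detected at this number of libraries. Other photosynthesis lists were not tested against division. Antenna and primary wall cellulose synthases had r = 0.13 (exact permutation p = 0.73, adjusted 0.83) and rho = 0.18 (p = 0.64, adjusted 0.64), and 0.69 without those 2 libraries.

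Antenna and LEA levels were inversely related, with r = -0.79 (exact permutation p = 0.0098, adjusted 0.049) and rho = -0.95 (p = 3.5e-04, adjusted 0.0018). Without the 2 farthest libraries r was -0.78. The adjusted p of r passed 0.05 only narrowly: leaving out 1 library gave 0.075 to 0.18 in the 7 of 9 cases in which it was lost, although r stayed between -0.81 and -0.73 in those. Small heat shock proteins had r = -0.51 (exact permutation p = 0.16, adjusted 0.41) and rho = -0.62 (p = 0.086, adjusted 0.21), and -0.78 without the 2 libraries. The 9 libraries are of 3 genotypes. With genotype means removed and libraries permuted within genotypes (216 arrangements, a test added after the data were seen), antenna and LEA had r = -0.81 (exact permutation p = 0.0093, adjusted 0.046). The other relations had r from -0.67 to -0.020 within genotypes, with adjusted exact permutation p from 0.37 to 0.95, and that of the primary wall turned negative (-0.15).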

How the data were processed

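The authors deposited raw read counts for 37863 genes in 18 leaf mRNA libraries. Poly-T selection and random priming preceded sequencing, per the labels' protocols. Named in the submitters' processing notes are fastp 0.22.0, HTSeq 0.9.1 and build IRGSP-1.0, with no role stated. Aligner, annotation release and strand setting were not given in the sources used here, so reads of overlapping, antisense or near-identical genes may not have been told apart. Totals ran from 27601098 to 39894394 counts per library, and 5242 genes had no count.

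Genes were kept by filterByExpr (minimum count 10, minimum total 15), which left 25957 genes holding 99.97% of the counts. Log2-CPM used TMM factors and a prior count of 2, and summed CPM used TMM-scaled totals. The trios were compared by description. Salt in the FKBP73 knockout was tested with edgeR 4.0.16 (R 4.3.3, limma 3.58.1) in a fit of 6 group means to all 18 libraries with 12 residual degrees of freedom. Relations over salt libraries used exact permutation (scipy 1.17.1). The p-values of edgeR rest on the spread between the 3 libraries within each group, estimated from all 18 libraries, the trios included. Those of the permutation tests come from rearranging the salt libraries and do not measure that spread. Scripts were tested on simulated data.

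The trios, the members and the gene lists were chosen with earlier results of these data known, and 5 of the lists (25 identifiers, 22 tested) were added after values were seen. The 42 other lists hold 396 identifiers, of which 365 were tested. Of the 37863 identifiers 1 was found in the reference table (assembly ASM3414082v1), so genes are printed by a rule: per direction, the 2 set-apart genes of largest difference that averaged 10 CPM or more in the higher trio. Alternatives were RLE or library size alone for TMM, no filter, a mean of at least 5 CPM, a prior count of 0.5, no fold threshold, each genotype alone, DESeq2 1.42.0, a fit of 6 libraries, a replicate block, and each library left out.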

Additional observations from a re-analysis of the deposited data

Results flagged for a closer look

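In several lists the wild type libraries of the first trio differed from wild type control 3 in one direction, and FKBP57 knockout control 2 from FKBP57 knockout controls 1 and 3 in the other. The largest such gap was in the LEA proteins and dehydrins, whose level was -2.05 in wild type (controls 1 and 2 minus 3) and 1.74 in the FKBP57 knockout (control 2 minus 1 and 3), in log2 units. The daytime clock list differed by -0.24 in wild type and 0.29 in the knockout. The dusk clock list differed by -0.23 and 0.35. Jasmonate synthesis and MYC2 differed by -0.26 and 0.12. Phosphate starvation SPX, with 2 tested genes, differed by 0.74 and -0.26, and antioxidant enzymes by -0.22 and 0.13. Abscisic acid synthesis and breakdown differed by -0.25 and 0.0031, the latter close to no difference. Its medians of member differences were -0.44 and -0.49, of the same sign, so opposite directions were not clear for that list. Whether the genotypes differ was not tested, since one side held 1 library in each genotype.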

How the results depend on the processing

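The trios differ in depth and composition, identifiers are unnamed, and groups hold 3 libraries, which limits every value here. Counts of set-apart genes (3248 higher, 2032 lower) became 1723 and 909 at a mean of at least 5 CPM, 5313 and 4044 within the FKBP57 knockout alone, and 5486 and 6144 without the fold threshold. With library size alone 727 were lower. Within wild type and within the FKBP57 knockout, list differences were -0.29 and -2.83 for the antenna, -0.62 and -2.30 for photosystem I, and -0.58 and -2.23 for the Calvin cycle. Growth-regulating factors gave 2.01 at a mean of at least 5 CPM, where fewer members were tested, and 3.56 to 4.59 with 1 library left out, the highest without FKBP57 knockout control 1. The shoot meristem list, which had no counts in the second trio, gave 7.04 at a prior count of 0.5. Heat shock factors turned from -0.30 to 0.0068 with library size alone.

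For salt in the FKBP73 knockout, 3617 genes rose and 3533 fell in a fit of its 6 libraries, and 2328 fell with DESeq2. With 1 library left out, 1373 to 2037 rose and 535 to 1231 fell. Same-numbered control and salt libraries of the FKBP73 knockout had deviations correlated at 0.088, 0.020 and -0.063. No shared deviation by number was thus seen, which cannot tell whether those libraries were handled together. A replicate block gave 2034 higher and 1248 lower genes. Over the fits tried, antenna genes called lower numbered 0 to 10 and DNA replication genes 0 to 9.

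Antenna and LEA levels under salt had r = -0.79 (exact permutation, adjusted p = 0.053) with RLE and -0.75 (adjusted p = 0.091) at a mean of at least 5 CPM. With 1 library left out, r with the antenna ran from -0.88 to -0.73 for LEA, from -0.52 to 0.12 for DNA replication, from -0.53 to 0.17 for the mitotic list and from -0.11 to 0.57 for primary wall cellulose synthases. The sign turned at 0.12 without FKBP73 knockout salt 2 (DNA replication), at 0.15 without wild type salt 2 and 0.17 without FKBP73 knockout salt 2 (mitotic list), and for primary wall at -0.015 (wild type salt 3 left out) and -0.11 (FKBP57 knockout salt 3 left out). Within genotypes, a setting added after the data were seen, it was -0.15 for primary wall. The cause was not tested.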
